A study of Mus musculus with 6 samples.

Results

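Cycling NK cells are natural killer cells that the authors' clustering of tumor-infiltrating lymphocytes separated from the main NK cluster. They were taken here as every cell that the deposited annotation calls Cycling_NK, including cells without an assigned mouse, and they numbered 68 of 2084 annotated T and NK cells. The libraries came from mice bearing subcutaneous 6694c2vTRP1 pancreatic tumor cells. From day 8 the mice received 2 intraperitoneal injections of PBS, of mono-IL10, an engineered IL-10 monomer, at 26 μg per mouse, or of IL10/2-Trikine at 30.6 μg per mouse. The Trikine is mono-IL10 linked to a non-signaling binder of IL-2Rβ, so it recruits a receptor chain of IL-2 into the IL-10 receptor complex. Tumors were harvested on day 14, CD45+ cells were bead-isolated, and 5 mice per treatment were marked with hashtag antibodies and pooled into 1 library. Each treatment was therefore 1 library, and an effect of treatment and an effect of library cannot be told apart.

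NK cells are cytotoxic lymphocytes that kill without prior priming, through granules holding perforin and granzymes, and that secrete chemokines and interferon-γ. IL-2 and IL-15 drive their survival and division through the shared IL-2Rβ and γc chains and STAT5, while IL-10 signals mainly through STAT3. A dividing NK cell first induces replication genes under E2F factors in S phase, and then mitotic genes whose promoters often carry a cell cycle homology region (CHR) and CCAAT boxes.

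The 6 cycling markers of the annotation check are shown first by the 150 bases upstream of their RefSeq start (GRCm38.p6). They are replication and mitosis genes, which set the cluster apart from the main NK cluster. Capitals mark the letters TTTGAA or TTTAAA (CHR), CCAAT, and TTTCGCG or TTTGGCG (E2F), each on either strand and allowed to overlap. *Mki67* (chr7:135716380-135716529, minus strand) encodes the proliferation antigen Ki-67, *Top2a* (chr11:99024190-99024339, minus) topoisomerase IIα, *Cdk1* (chr10:69352913-69353062, minus) the mitotic kinase, *Ccnb2* (chr9:70421555-70421704, minus) cyclin B2, *Mcm5* (chr8:75109359-75109508, plus) a replicative helicase subunit and *Pcna* (chr2:132253181-132253330, minus) the polymerase clamp.
Mki67: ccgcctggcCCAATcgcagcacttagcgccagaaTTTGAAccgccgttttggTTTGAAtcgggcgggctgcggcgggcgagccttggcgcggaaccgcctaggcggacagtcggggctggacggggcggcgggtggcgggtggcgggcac
Top2a: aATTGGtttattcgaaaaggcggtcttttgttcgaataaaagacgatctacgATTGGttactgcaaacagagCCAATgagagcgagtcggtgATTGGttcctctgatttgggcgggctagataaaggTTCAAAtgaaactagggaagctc
Cdk1: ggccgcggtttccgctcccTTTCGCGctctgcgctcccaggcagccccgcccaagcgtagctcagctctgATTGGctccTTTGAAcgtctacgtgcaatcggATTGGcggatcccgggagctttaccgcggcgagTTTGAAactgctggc
Ccnb2: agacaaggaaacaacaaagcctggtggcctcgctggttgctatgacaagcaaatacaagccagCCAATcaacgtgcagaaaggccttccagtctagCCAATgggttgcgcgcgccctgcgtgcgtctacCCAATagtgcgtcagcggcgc
Mcm5: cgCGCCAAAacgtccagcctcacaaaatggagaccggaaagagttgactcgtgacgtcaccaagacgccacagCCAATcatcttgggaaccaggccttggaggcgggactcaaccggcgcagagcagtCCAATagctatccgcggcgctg
Pcna: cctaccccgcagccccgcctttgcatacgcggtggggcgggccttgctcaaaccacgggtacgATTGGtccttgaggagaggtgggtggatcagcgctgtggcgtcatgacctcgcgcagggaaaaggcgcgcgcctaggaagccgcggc
Across the full 250 upstream bases, CHR letters together with CCAAT stood in 24 of 52 promoters of the G2M phase list (46.2%) and in 4 of 35 promoters of the S phase list (11.4%), against 8.35% of 25075 promoters of measured genes. The E2F letters stood in 8 of 35 S phase promoters (22.9%), in 4 of 52 G2M promoters (7.69%) and in 2.31% of all promoters. These are matches of letters and were not tested as binding sites.

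NK genes outweighed T cell genes in the cluster, while the share of cells with a defining cycle gene varied by gene, library and thinning. All 68 cells held more UMIs of the NK genes (Ncr1, Klrb1c, Klre1, Tyrobp and Fcer1g) than of the T cell genes (Cd3e, Cd3d, Cd3g, Trac and Trbc2). In the IL10/2-Trikine library 38 of 54 Cycling_NK cells had no UMI of the T cell genes (70.4%, exact 95% interval 56.4 to 82.0), beside 251 of 372 NK cells (67.5%). So had 5 of 10 Cycling_NK cells with mono-IL10 and 0 of 4 with PBS, where Trac, a T cell receptor chain, was found in all 4 cells (303 CPM against 25.7 CPM in NK cells). After every cell was thinned to 1500 UMIs, Top2a was found in 50% of Cycling_NK cells of that library, in 5.38% of its NK cells and in 3.37% of naive T cells, which should not divide. It was found in 70% of the 10 mono-IL10 and 25% of the 4 PBS Cycling_NK cells. Thinned Mki67 was found in 37.0% of the Trikine cells, but in 0 of 10 mono-IL10 cells (exact upper bound 30.9%) and 0 of 4 PBS cells (60.2%), and without thinning in 70% and 25% of those. Thinned Ncr1, the gene of the NK receptor NKp46, was found in 31.5% of Cycling_NK and 25.0% of NK cells with Trikine, in 20% and 22.9% with mono-IL10, and in 0 of 297 naive T cells (exact upper bound 1.23%). The intervals cover counting error only. The thinning was a random draw that was not repeated, and its spread is not in them. In the mono-IL10 cells Mki67 and Top2a had 31 UMIs each (255 CPM), so their thinned difference there is not read.

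The authors' clustering was made jointly with a further group that has no sample here and was not analysed, and that group held 486 of the 554 Cycling_NK cells in the deposited annotation (87.7%). Summed UMIs over Cycling_NK cells were 181063 for IL10/2-Trikine, 121415 for mono-IL10 and 23128 for PBS, so 1 UMI was worth 5.52, 8.24 and 43.2 CPM (counts scaled to a common total). No Cycling_NK barcode was shared between the Cycling_NK cells of different libraries. Of the 54 Trikine cells 24 had no mouse assigned, as did 1 of 10 mono-IL10 cells and 1 of 4 PBS cells.

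How much of the NK lineage was cycling was asked first, per mouse, as the share of Cycling_NK among NK and Cycling_NK cells. In the 5 IL10/2-Trikine mice the share was 11.1, 11.6, 29.6, 16.1 and 9.23%. In the 5 mono-IL10 mice it was 1.92, 7.89, 0, 1.82 and 11.4%, and in the 5 PBS mice 0, 0, 10, 0 and 7.14%. Of the Trikine mice 4 lay above every PBS mouse and 3 above every mono-IL10 mouse, while its range overlapped that of each other group.

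**Figure D1:**
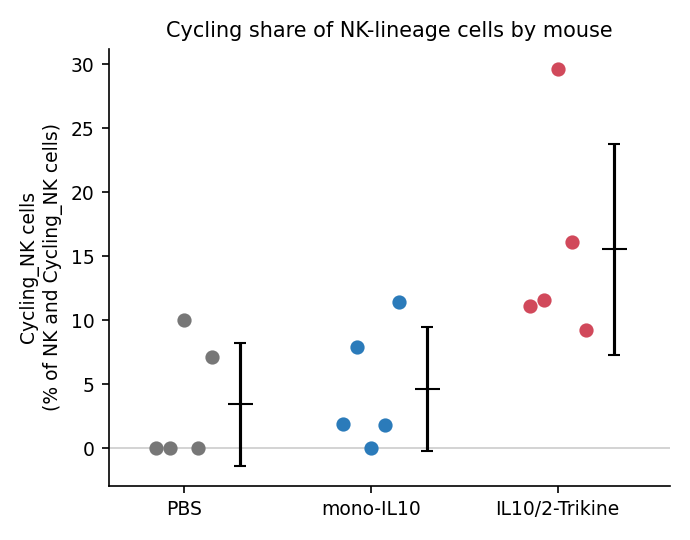
Share of Cycling_NK among NK and Cycling_NK cells (y axis, percent) in each mouse by treatment (x axis); points are mice, and the black mark and bar give the mean and SD of 5 mice. IL10/2-Trikine mice span 9.23 to 29.6%, and the other mice 0 to 11.4%.

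The mean share was 15.5% ± 8.27 (SD, n = 5) with IL10/2-Trikine, 4.61% ± 4.84 with mono-IL10 and 3.43% ± 4.80 with PBS. The Trikine share was 12.1 percentage points above PBS (exact two-sided permutation test, p = 0.0159, adjusted over 3 comparisons p = 0.0357) and 10.9 points above mono-IL10 (exact permutation p = 0.0238, adjusted p = 0.0357). Mono-IL10 and PBS, 1.18 points apart, did not pass the test (exact permutation p = 0.683). The smallest p that 5 against 5 mice allow is 0.00794, and both Trikine comparisons share its 5 mice. A mouse contributed 9 to 69 NK-lineage cells, and the calls did not hold without some mice. The call against mono-IL10 was lost in 7 of 10 runs that left out 1 mouse (Trikine mouse 2, 3 or 4, or mono-IL10 mouse 1, 2, 3 or 4), with an adjusted exact permutation p of up to 0.0833. The call against PBS was lost in 3 of 10 (Trikine mouse 2, 3 or 4), with an adjusted exact permutation p of up to 0.0714. Without Trikine mouse 3 the differences were 8.59 points against PBS and 7.40 points against mono-IL10. Counted over all cells of a library the shares were 54 of 426 cells (12.7%, exact 95% interval 9.67 to 16.2), 10 of 263 (3.80%, 1.84 to 6.88) and 4 of 174 (2.30%, 0.630 to 5.78). These intervals cover the counting error of cells only. They leave out the spread between mice and libraries, so they do not compare the treatments.

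The cluster named Cycling_T held further cells with NK genes. In the IL10/2-Trikine library 128 of 174 Cycling_T cells (73.6%) had more UMIs of the NK than of the T cell genes, against 18 of 120 (15%) with mono-IL10 and 16 of 55 (29.1%) with PBS. With these cells counted as cycling NK, the Trikine share was 19.4 points above PBS and 22.5 points above mono-IL10 (exact permutation p = 0.00794 for each, adjusted p = 0.0119). In Trikine Cycling_T cells Fcer1g was at 1461 CPM, against 326 CPM for Klre1, 193 CPM for Klrb1c and 143 CPM for Ncr1. Each T cell gene was at 148 to 283 CPM. The comparison thus gives Fcer1g more weight than these. Tyrobp was counted among the NK genes too, and its level in Cycling_T cells is not given here. In NK cells of the 5 Trikine mice it was at 2596 to 3558 CPM. How well Fcer1g or Tyrobp marks NK cells was not tested.

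Cycling_NK cells held more UMIs and genes than NK cells of the same mouse, a call that rests in part on 4 mice with 1 or 2 Cycling_NK cells. Over the 11 mice with cells of both clusters, median UMIs per cell were 1.70-fold higher (log2 difference 0.76 ± 0.58 SD, higher in 10 of 11 mice, exact sign-flip permutation p = 0.00195, adjusted over 4 measures p = 0.00391). Genes per cell were 1.47-fold higher, in 11 of 11 mice (exact sign-flip permutation p = 0.000977, the smallest this design can give, adjusted p = 0.00391). Over the 7 mice with at least 3 cells per cluster, UMIs were 1.58-fold and genes 1.41-fold higher, and neither passed (exact sign-flip permutation, adjusted p = 0.0625 for each). The share of mitochondrial UMIs (exact permutation p = 0.752) and the hashtag UMIs per cell (exact permutation p = 0.499) did not pass the test. Among the 5 Trikine mice alone, where no p can fall below 0.0625, UMIs were 1.27-fold higher (exact permutation p = 0.125).

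**Figure D2:**
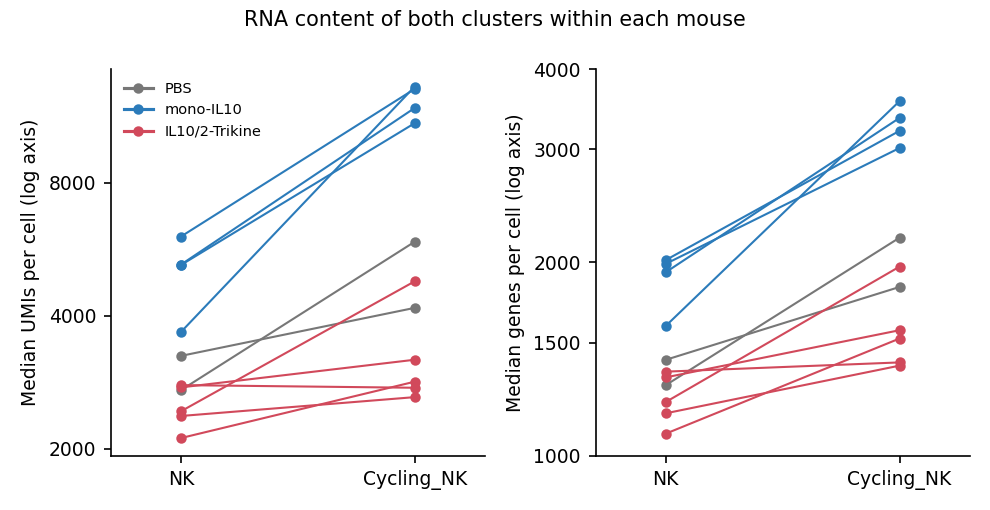
Median UMIs (left) and genes (right) per cell, on log axes, in NK and Cycling_NK cells; each line joins both clusters of 1 mouse, colored by treatment. Cycling_NK cells of the 4 mono-IL10 mice had 10910 to 13202 UMIs, and those of the Trikine mice 2617 to 4785.5.

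Depth differed between libraries in the same cells. Cycling_NK cells had a median of 12234 UMIs with mono-IL10 and none under 7939, against 3164.5 with IL10/2-Trikine and 5882 with PBS. NK cells had 4846, 2531.5 and 3086. The part of this difference in the gene results was not tested beyond the thinned sums given below.

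Gene levels in Cycling_NK were set beside those of NK cells in the same library, as CPM of counts summed over cells. The clusters were made from these genes, so the levels are a description without a test, and ratios are on the log2(CPM + 10) scale. In the Trikine library 257 of 3576 genes at 50 CPM or more were past 2-fold higher (7.19% of genes) and 153 past 2-fold lower (4.28%). The median ratio over these genes was 0.04.

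Replication and mitosis genes led the higher side. Of the S phase list 22 of 26 measured members were past 2-fold higher and none lower, with a median of 1.64. Mki67 was 421, 266, 570, 253 and 373 CPM in Cycling_NK cells of the 5 Trikine mice, and 38.7, 37.9, 0, 35.6 and 19.3 CPM in their NK cells. Every mouse was higher in the cycling cells, without overlap, and the library ratio was 10.5-fold. Of the G2M phase list 25 of 30 were past 2-fold higher, with a median of 2.08. Ube2c, which loads ubiquitin for the anaphase-promoting complex, was at 193 against 11.8 CPM, and Ccna2, cyclin A2, at 144 against 2.95 CPM. In S phase, Rrm2, the regulated subunit of ribonucleotide reductase, was at 116 against 3.94 CPM, and Uhrf1, which guides maintenance methylation, at 221 against 29.5 CPM. These genes were not particular to Cycling_NK. In Cycling_T cells of the library the S phase list summed to 5324 CPM and the G2M list to 13368 CPM. In Cycling_NK they summed to 4833 and 9074 CPM.

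Genes of chromatin, microtubules and nucleotide supply were higher too. Of the nuclear envelope and chromatin list, which also holds microtubule genes, 15 of 23 were past 2-fold higher. It was led by Stmn1, a microtubule destabilizer (779 against 96.5 CPM). Of the nucleotide and nutrient list 7 of 11 were, among them Tk1, thymidine kinase (122 against 17.7 CPM). Of the histone list 9 of 13 were, with the linker histone H1f5 at 298 against 6.89 CPM. In numbered cluster 10 alone 3 of 9 histone genes were past 2-fold higher and 1 lower (median 0.59), where 7.58% of all genes were higher. In cluster 11 alone 17 of 20 were higher (median 3.04), where 18.9% were. Histone genes have near-identical copies, so the split of reads between them is uncertain. Among genes in no list, Prc1, Aspm and Pclaf had the highest ratios (3.28, 3.08 and 3.07 on the log2 scale); Prc1 and Aspm act at the spindle, and Pclaf binds PCNA.

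**Figure D3:**
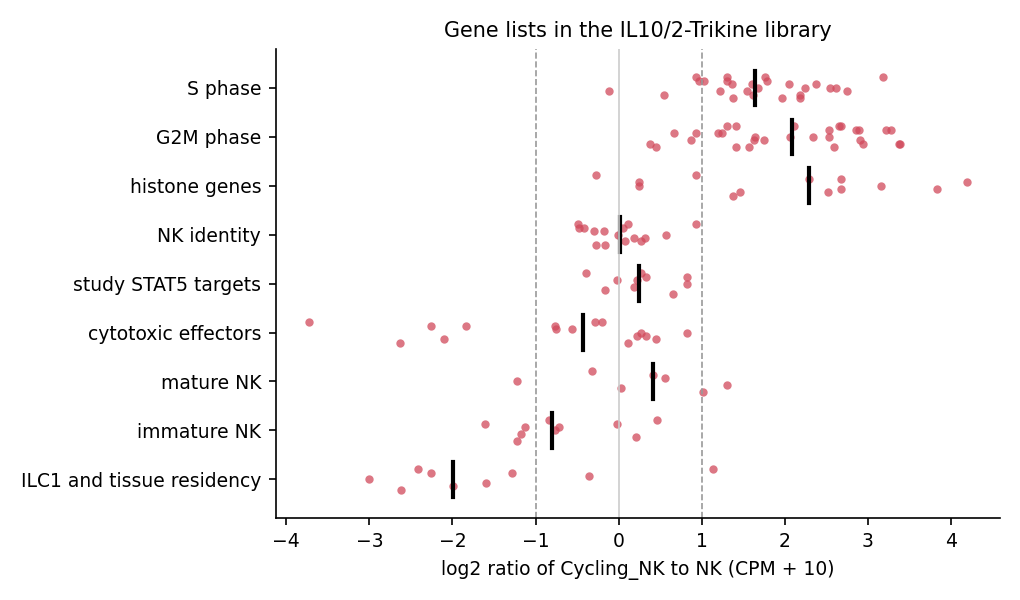
Log2 ratio of Cycling_NK to NK (x axis, CPM + 10) in the IL10/2-Trikine library for genes at 50 CPM or more, by gene list (y axis); points are genes, black bars medians, dashed lines 2-fold. S phase, G2M phase and histone genes lie to the right, and ILC1 and tissue residency genes to the left with a median of -1.996.

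Of 16 measured NK identity genes none was past 2-fold, and the median was 0.02, where 7.19% of all genes were past 2-fold higher and 4.28% lower. Without Trikine mouse 3 or mouse 5, 1 was past 2-fold higher, and in numbered cluster 11 alone 2 were, where 18.9% of all genes were. Eomes, a T-box factor of NK cells, was nearest, at 249 against 126 CPM, higher in 3 of 5 mice. Ncr1 was level over the library (215 against 217 CPM) but lower in 5 of 5 mice; the library sum also holds the 24 cells without a mouse. None of the 10 genes listed as STAT5 targets from the study was past 2-fold over the whole cluster, though 2 were past 2-fold higher in numbered cluster 11, a share near the 18.9% of all genes there, and none in cluster 10, where 7.58% of all genes were. The medians were 0.80 and -0.17. Of 7 measured receptor, JAK and STAT genes none was past 2-fold over the whole cluster. Il2rb, the chain the Trikine recruits, was at 922 against 1405 CPM. That STAT5 list was chosen on data of this study and is not independent evidence.

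Genes of ILC1 cells and tissue residency were lower. Of 9 measured members 7 were past 2-fold lower and 1, the activation marker Cd69, higher, with a median of -1.996 (5 of 8 lower and none higher in cells with a mouse). Inpp4b, a lipid phosphatase, was 0, 0, 0, 0 and 33.9 CPM in Cycling_NK cells of the 5 Trikine mice and 77.4, 284, 91.2, 320 and 225 CPM in their NK cells. The clusters did not overlap, and the library ratio was 8.01-fold lower. Itga1, the integrin α1 chain that tethers cells to collagen, was lower in 5 of 5 mice. Tmem176a had no UMI and was at least 3.09-fold lower at a floor of 3 counts. Of the immature NK list 4 of 10 were past 2-fold lower, with Cd7, an early lymphoid surface protein, at 49.7 against 171 CPM. In numbered cluster 10 alone 1 of 10 was (median -0.37), where 5.26% of all genes were. In cluster 11 alone 8 of 10 were (median -2.79), where 11.6% were. Of the mature NK list, Zeb2, a maturation factor, was past 2-fold higher and Ly6c2 lower.

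Over the whole cluster cytotoxic genes were lower or within 2-fold. Of 16 measured members 5 were past 2-fold lower, where 4.28% of all genes were, and none higher. The 5 lower genes were Gzmc, Gzmd, Gzme, Tnfsf10 (the death ligand TRAIL) and Gzmf, the last named after its value was seen. In numbered cluster 10 alone 5 of 16 were lower and none higher, where 5.26% of all genes were lower. In cluster 11 alone 6 were lower and 2 higher, where 11.6% and 18.9% of all genes were. The list summed to 13506 CPM in cluster 10 and 29008 CPM in cluster 11, against 19078 CPM in NK cells. Gzmc, an alternative granzyme, was 0, 1018, 964, 380 and 2647 CPM in Cycling_NK cells and 4682, 7564, 2417, 5892 and 4876 CPM in NK cells of the 5 Trikine mice. It was lower in every mouse, 4.29-fold over the library. Gzma, granzyme A, was 6893 against 3895 CPM, within 2-fold. It was higher in 5 of 5 mice, but nearly level in mouse 3, 4 and 5. By mouse it was 10951, 7437, 8632, 4305 and 4446 CPM against 2657, 3605, 8621, 3983 and 4099 CPM in NK cells. Prf1, perforin, was 1016 against 809 CPM. Of the cytokine and chemokine list, the inflammatory chemokines Ccl3, Ccl4 and Ccl5 were past 2-fold higher, and Xcl1, which attracts dendritic cells, and Ltb lower. Ccl4 was 211, 2789, 3243, 443 and 33.9 CPM in Cycling_NK cells of the 5 Trikine mice. In their NK cells it was 103, 37.9, 160, 178 and 116 CPM, so mouse 5 went the other way. The list summed to 2645.5 CPM in numbered cluster 10 and 11669 CPM in cluster 11, against 2799.5 CPM in NK cells. Of the survival and feedback list, Pim1, Bcl3 and Osm were past 2-fold higher and Bcl2 and Cish lower; Bcl2 was named after its value was seen. Cish, a STAT5-induced inhibitor of cytokine signaling, was at 27.6 against 75.8 CPM.

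Outside the lists Ifitm1, an interferon-induced membrane protein, was the lowest, at 44.2 against 514 CPM, and Ifitm3 was at 55.2 against 223 CPM. Of 21 measured NK receptors 4 were past 2-fold lower (Klra5, Cd226, Klra9 and Cd96) and none higher, where 4.28% of all genes were lower. Cd226 and Cd96 bind nectin-family ligands. In numbered cluster 10 alone 5 of 22 receptors were lower and 2 higher, where 5.26% and 7.58% of all genes were. In cluster 11 alone 6 of 21 were lower and 2 higher, where 11.6% and 18.9% of all genes were. T cell markers summed to 530 CPM in Cycling_NK against 695 CPM in NK cells, and macrophage markers to 541 against 429 CPM. Neutrophil markers summed to 66.3 against 10.8 CPM, with 4 of 7 at 0 in Cycling_NK. Their part in the results was not tested.

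Fewer cells support the other libraries. With mono-IL10, 312 of 3462 genes were past 2-fold higher (9.01%) and 252 lower (7.28%), including 24 of 28 S phase and 11 of 17 G2M phase members higher. The mitotic genes leaned on the 1 cell of mouse 4, of numbered cluster 11. Mki67 was 1947.5 CPM there, against 0, 53.0 and 94.3 CPM in mice 1, 2 and 5. Top2a was 1185 CPM there, against 0, 159 and 70.7 CPM. Of the 10 cells 2 had more G2M than S phase UMIs, against 195 of 253 NK cells of that library (77.1%). This measure therefore does not mark mitosis by itself. Of 23 cytotoxic effector, cytokine and chemokine genes measured in both libraries, 10 had a ratio of the opposite sign to that in the Trikine library (43.5%), as had 36.9% of all 3094 genes measured in both; the difference was not tested. The numbered clusters moved with this, since 1 of 10 mono-IL10 cells and 18 of 54 Trikine cells were of cluster 11. Against Trikine cluster 10 alone, 6 of the 23 had opposite signs (26.1%, beside 34.4% of all genes), and Gzma, Gzmb and Nkg7 were no longer among them. Of the 10 with opposite signs over the whole cluster, Ccl4 was at -3.50 and Ccl5 at -1.49 with mono-IL10 on the log2 scale. Gzma was at -1.23, Ccl3 at -0.90 and Xcl1 at 0.78, while Gzmb, Prf1 and Nkg7 lay between -0.39 and -0.08. Of 7 measured cytokines and chemokines 0 were past 2-fold higher and 3 lower. With PBS, 1 UMI in the 4 cells nearly reached the 50 CPM level, and 22.4% of genes were past 2-fold higher and 19.1% lower, so its lists are not read. ILC1 and tissue residency members were lower in 6 of 11 with mono-IL10, with a median of -1.03.

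Within Cycling_NK the deposited table numbers 2 clusters. Cluster 10 held 36 Trikine, 9 mono-IL10 and 4 PBS cells, and cluster 11 held 18, 1 and 0. All 5 Trikine mice had cells of both. In the Trikine library S phase genes summed to 5418 CPM in cluster 10 and 3497 CPM in cluster 11, and G2M genes to 5490 and 17249 CPM. Ube2c was at 7.94 and 616 CPM, and Mcm5 at 222 and 72.5 CPM.

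**Figure D4:**
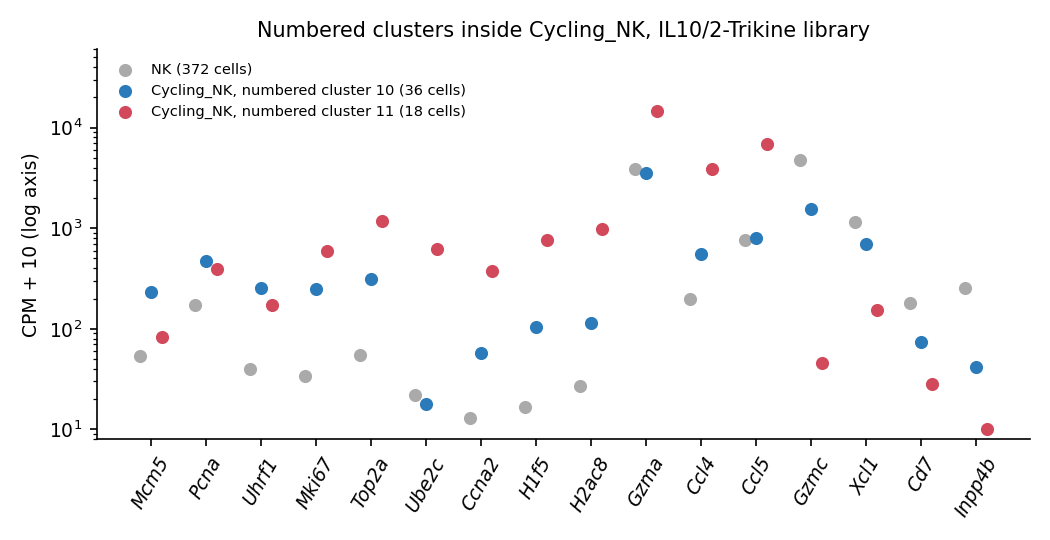
CPM + 10 (y axis, log scale) of named genes (x axis) in NK cells and in the numbered clusters 10 and 11 of Cycling_NK, IL10/2-Trikine library. Mitotic genes, H1f5, Gzma, Ccl4 and Ccl5 stand highest in cluster 11, while Gzmc is at 4702 CPM in NK, 1549 CPM in cluster 10 and 36.2 CPM in cluster 11.

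The effector genes also divided by numbered cluster. Gzma was at 3496 CPM in cluster 10 and 14640 CPM in cluster 11, and Ccl5 at 787 and 6885 CPM. Gzmc was at 1549 and 36.2 CPM, and Xcl1 at 683 and 145 CPM. Of 9 measured ILC1 and tissue residency genes, 6 were past 2-fold lower than in NK cells in cluster 10 (median -1.91), where 5.26% of all genes were, and 7 in cluster 11 (median -2.61), where 11.6% were and Cd69 was higher, at 435 CPM.

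Whether Cycling_NK cells differed between treatments was tested by edgeR's quasi-likelihood test on counts summed per mouse, with the 5 Trikine and 2 mono-IL10 mice that had 3 or more cells. Of 414 genes tested, 12 were higher (2.9%) and 2 lower (0.483%) with IL10/2-Trikine at an adjusted p of 0.05 or less, and 76 had an unadjusted p under 0.05. No PBS mouse had 3 cells.

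Gzma was 10951, 7437, 8632, 4305 and 4446 CPM in the Trikine mice and 424 and 377 CPM in the mono-IL10 mice. The groups did not overlap (log2 fold change 4.21 ± 0.40 SE, edgeR adjusted p = 2.2e-06). In NK cells of the same mice Gzma was 2657 to 8621 CPM with Trikine and 1665 and 2174 CPM with mono-IL10. Xcl1 was 0, 575, 219, 886 and 543 CPM against 3843 and 5163 CPM (log2 fold change -3.16 ± 0.38 SE, edgeR adjusted p = 3.7e-05), and in NK cells 182 to 1790 CPM against 2075 and 2345 CPM, which did not overlap either. Gzmc was 0 to 2647 CPM against 6891 and 6671 CPM (-2.46 ± 0.45 SE, edgeR adjusted p = 0.0032), and in NK cells 2417 to 7564 CPM against 4838 and 6770 CPM, which overlapped. The separation rests on the 2 mono-IL10 mice with 3 or more cells: in the other 2, with 1 cell each, Gzmc was 0 and 2456 CPM, Xcl1 3297 and 593 CPM and Gzma 153 and 3556 CPM. Both Gzmc values and the lower Xcl1 value lay within the Trikine range, and both Gzma values lay below it. Gzmc was not called by the DESeq2 Wald test over the same genes (log2 fold change -2.68, adjusted p = 0.289) or over all detected genes (-2.96, adjusted p = 0.974), nor by edgeR with those mice added (-1.81, adjusted p = 0.225), while Gzma and Xcl1 were called in all 3. The treatment difference was not tested against that in NK cells.

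Of the other calls with separate groups, Vim (intermediate filament), Serinc3, Ahnak and Dock2 (a guanine exchange factor of migrating leukocytes) were higher with Trikine, by 2.72, 1.85, 2.29 and 1.58 on the log2 scale. So were Hmgb2, a chromatin protein of dividing cells (1.54), Top2a (2.38) and Tuba1b, a tubulin (1.41). These groups were separate only over the 2 mono-IL10 mice in the fit: the 1 cell of mono-IL10 mouse 4 lay above all 5 Trikine mice for Hmgb2 (5250 CPM against at most 4469 CPM), Top2a (1185 against 842 CPM), Tuba1b (1270 against 1239 CPM) and Dock2 (2371 against 2274 CPM). Vim in both left-out mice and Ahnak in mouse 1 lay within the Trikine range, while Serinc3 lay below it in both. All 7 were called by the DESeq2 Wald test over the same genes, and none over all detected genes or by edgeR with the left-out mice added. Pclaf, Klra4, Ccl4 and Ccl5 were also called. Ccl4 overlapped, at 33.9 to 3243 CPM against 47.1 and 53.0 CPM.

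**Figure D5:**
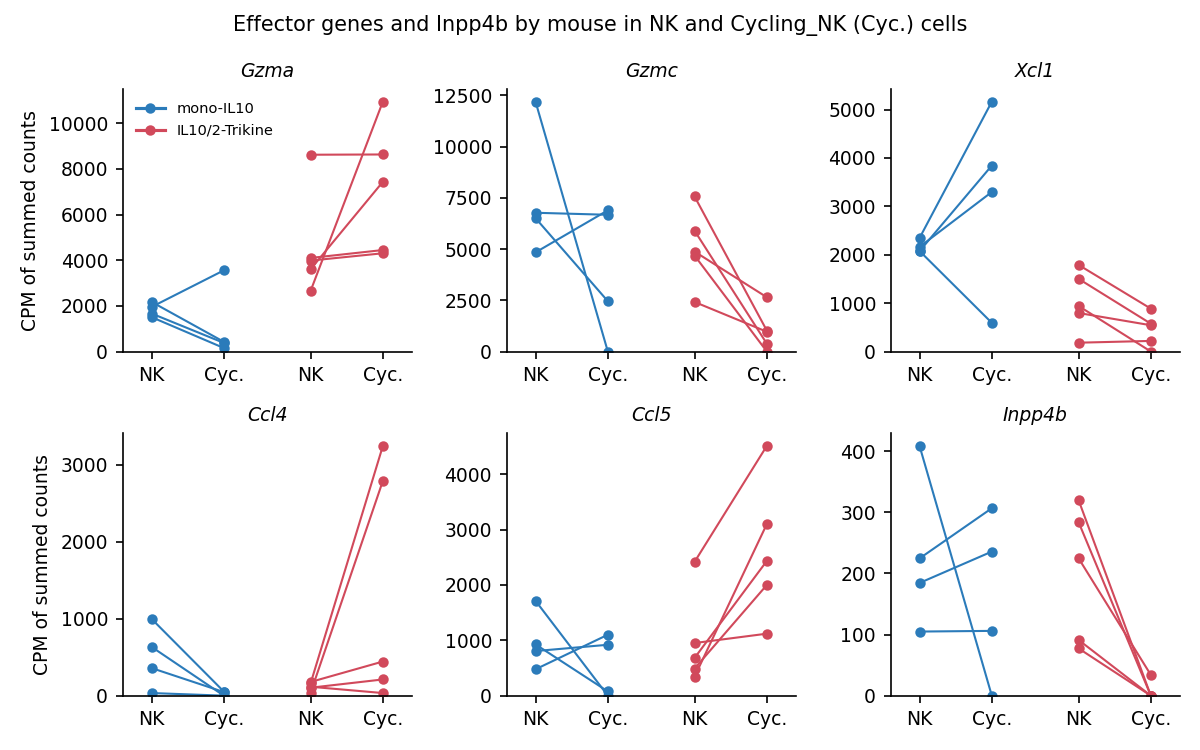
CPM of summed counts (y axes) of 5 effector genes and Inpp4b in NK and Cycling_NK (Cyc.) cells; each line joins both clusters of 1 mouse, with 4 mono-IL10 mice (blue; 2 of them with 1 cell) and 5 IL10/2-Trikine mice (red). Gzma of Trikine cycling cells stands at 4305 to 10951 CPM.

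The 7 mono-IL10 cells in this fit were all of cluster 10, while 9 of the 30 Trikine cells were of cluster 11, so the treatment moves with the numbered cluster. Over cluster 10 cells alone, with 4 against 2 mice, Gzma (3.21), Xcl1 (-2.63) and Gzmc (-1.88) passed the edgeR test, and they were the 1 higher and 2 lower calls among 336 genes. After every mouse was thinned to 9497 UMIs, 2 genes were higher and 2 lower of 184, and Gzma, Xcl1, Gzmc and Hmgb2 were among them. With the 2 mono-IL10 mice of 1 cell added, Gzma and Xcl1 were the 1 higher and 1 lower call.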

How the data were processed

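UMI counts per gene were deposited by the authors as 1 matrix per library (Cell Ranger 9.0.1 per the file headers, GRCm39 per the labels), with a cell annotation made in Seurat 5.1.0 that also gives percent mitochondrial UMIs. The labels also name DESeq2 1.46.0. Annotated cells had at least 1000 genes; doublets were treated only as the authors treated them, and no doublet caller was run here. Annotated cells matched the matrices by barcode within the named library.

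Counts were summed over the cells of a cluster by library or by mouse (hashtag) and scaled to CPM, with a pseudocount of 10 CPM. Genes were named by a rule: markers, the 4 largest ratios per list, 10 per direction outside the lists, receptors, STAT5 targets, and the 10 smallest adjusted p between treatments. The members and gene lists were chosen with earlier results of these data known. Shares and cell measures were compared by exact permutation tests in Python 3.11.15 (scipy 1.17.1), and summed counts by edgeR 4.0.16, with DESeq2 1.42.0 as an alternative. On simulated data for the Trikine against mono-IL10 comparison (481 genes tested), 87.3% of 126 genes changed 4-fold were recovered, with 8 false calls. The simulation gave every gene the same spread and did not model the numbered clusters. Its recovery rate may therefore not hold for the real counts. Thinned values used 1500 UMIs per cell. Promoters were RefSeq windows of GRCm38.p6. Alternatives covered filters, scaling, cell minimums and left-out mice. Those by numbered cluster, with thinned sums, with DESeq2 over the filtered genes, and with 1 mouse left out of the library ratios were chosen after seeing the data. Some genes are not reported here.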

Additional observations from a re-analysis of the deposited data

Results flagged for a closer look

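By Dixon's ratio, 2 of 21 groups of 4 or 5 mice held a mouse far from the others; chance flags about 1 group in 20. The within-mouse difference in UMIs per cell between Cycling_NK and NK set 1 of the 4 mono-IL10 mice apart (gap over range 0.857): mouse 2 had a log2 difference of 1.85, where the other mice had 1.07 to 1.18. The difference in percent mitochondrial UMIs set 1 of the 5 IL10/2-Trikine mice apart (gap over range 0.900): mouse 1, with 3 Cycling_NK cells, had 2.25% in Cycling_NK against 1.51% in NK cells.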

How the results depend on the processing

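No paired analysis across treatments was possible because the replicate numbers only name hashtags within separate libraries, so a number pairs no mice. Cycling_NK and NK were compared in pairs within mice. The Trikine share minus the mono-IL10 share no longer passed at an adjusted p of 0.05 among mice with at least 10 NK-lineage cells (9.77 points). The share of cells with at least 2 G2M UMIs after thinning gave 15.8 points, and 7.83 points against PBS, neither past the threshold; it marked 83.7, 68.0 and 75.9% of NK-lineage cells with Trikine, mono-IL10 and PBS, so it does not measure the cycling share and nothing is read from it. Leaving out 1 mouse at a time gave 8.59 to 13.8 points against PBS (3 of 10 runs lost the call) and 7.40 to 12.6 points against mono-IL10 (7 of 10). The mono-IL10 minus PBS difference turned to -3.15 points with NK-like Cycling_T cells added (-7.92 points by the G2M measure), and ranged from -0.52 to 2.83 points without 1 mouse. With at least 3 cells per cluster, log2 UMIs (0.66) and genes (0.50) per cell no longer passed, as in the Trikine mice alone (0.35 for each). Percent mitochondrial UMIs turned to 0.0374 and 0.0567 points there, and lay between -0.111 and 0.000706 without 1 mouse. Genes past 2-fold lower were 281 among cells with a mouse and 481 in cluster 11, where 783 were higher. Ratios turned over in cluster 10 for Ccnb2 (-0.48), Ube2c (-0.28) and Osm (-1.36), and in cluster 11 for Umps (-0.84) and Gins1 (-0.48).

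Between treatments the calls were 1 higher and 1 lower by the DESeq2 Wald test without the count filter (9638 genes) and with at least 1 cell per mouse, 10 higher and 1 lower by DESeq2 over the 414 genes past the filter, 2 higher with thinned sums, 1 higher in cluster 10, and 14 lower with no filter on low counts. Leaving out 1 mouse gave 5 to 13 higher and 2 to 9 lower; 5 higher came without Trikine mouse 3, 7 without mono-IL10 mouse 5, and 9 lower without mono-IL10 mouse 2, where the lone mono-IL10 mouse is assumed to vary like the Trikine group. A minimum of 5 cells was not run, since 0 mono-IL10 mice reach it. The causes were not tested. Depth limits PBS most, with 4 cells.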
